A study of Mus musculus with 6 samples.

Results

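The 39 genes described here are interferon-stimulated genes and the receptor chains for type I interferon, measured in mouse natural regulatory T cells (nTregs) given an agonist of the prostaglandin E2 receptor EP4. They were taken by name from a given list of genes of the interferon response, and all 39 were found among the 47643 reference genes of the deposited tables. The cells came from the spleens of C57BL/6 mice carrying Foxp3-DTR/EGFP, an allele in which Foxp3, the lineage factor of regulatory T cells, also drives a diphtheria toxin receptor and a green fluorescent protein. The mice of both groups carried this allele, and the labels give neither their age nor whether the cells of several mice were pooled. Splenic nTregs were activated through CD3 and CD28 with IL-2 for 2 days and then kept for 6 h with DMSO (vehicle, 3 libraries) or with 100 nM EP4 agonist (3 libraries). They were sorted on green fluorescence before RNA extraction, and the agonist is not named further in the labels. What the replicate numbers 1 to 3 stand for is not said in the labels, so the p-values reflect only how these 6 libraries vary, and part of that may be technical.

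Type I interferons bind a receptor made of the chains IFNAR1 and IFNAR2, which activates the kinases TYK2 and JAK1. A complex that includes STAT2 and IRF9 then binds the interferon-stimulated response element (ISRE) in the promoters of its targets. Interferon gamma acts through its own receptor and the gamma-activated site (GAS). The products of the target genes sense foreign nucleic acid, block viral replication, modify proteins with ISG15 or attack the membranes around intracellular microbes, and T cells keep many of them at a low tonic level without infection.

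The ISRE can be looked for in the promoters of these genes. The 6 stretches shown belong to the tested genes with an ISRE core before the annotated start that had the highest and lowest fold changes. The core was searched as GAAANNGAA (TTCNNTTTC on the other strand) in RefSeq promoter windows of 300 bases, from 250 before to 50 after the annotated start (GRCm38.p6). Each stretch runs 5′ to 3′ on the gene's strand, holds up to 20 bases on each side, ends before the start and has the core matches in capitals. The restriction to matches before the start was chosen after the matches were seen. It left out Ddx58 (log2 fold change 0.20) and Eif2ak2 (0.13), whose core matches lie after the start. Both had higher fold changes than Trim25 and Trim30a, which are shown.
Isg15, chr4:156200856-156200916, minus strand: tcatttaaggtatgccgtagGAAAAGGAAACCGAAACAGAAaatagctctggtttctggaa
Trim25, chr11:88999374-88999402, plus strand: ccagggcgccgcccctcctgTTCAGTTTC
Trim30a, chr7:104465200-104465248, minus strand: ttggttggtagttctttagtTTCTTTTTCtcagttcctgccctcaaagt
Bst2, chr8:71537568-71537622, minus strand: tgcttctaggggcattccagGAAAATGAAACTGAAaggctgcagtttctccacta
Igtp, chr11:58199502-58199550, plus strand: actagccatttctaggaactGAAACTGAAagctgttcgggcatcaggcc
Adar, chr3:89730468-89730497, plus strand: gGAAAAGGAActtcctcacagggcggagag

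In Isg15 the capitals join 3 overlapping matches, 58 to 78 bases before the start, and in Bst2 they join 2 matches. Trim25 and Trim30a carry the core on the opposite strand. For Bst2 and Adar, the bases just after the annotated start were found in no GENCODE transcript of the gene, so these starts are less certain. The Adar stretch comes from 1 of its 3 promoter windows and lies inside the gene, which is listed from 89715022. Of the 39 genes, 31 had a promoter in the RefSeq table, and 20 of these 31 (64.5%) held at least 1 core match, against 9.76% of the 27025 genes in that table. The GAS letters TTCNNNGAA, which are their own reverse complement and can overlap the core, stood in 11 of the 31 (35.5%), against 9.55% of all genes. A match is a string of letters and does not show that a factor bound there.

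**Figure D1:**
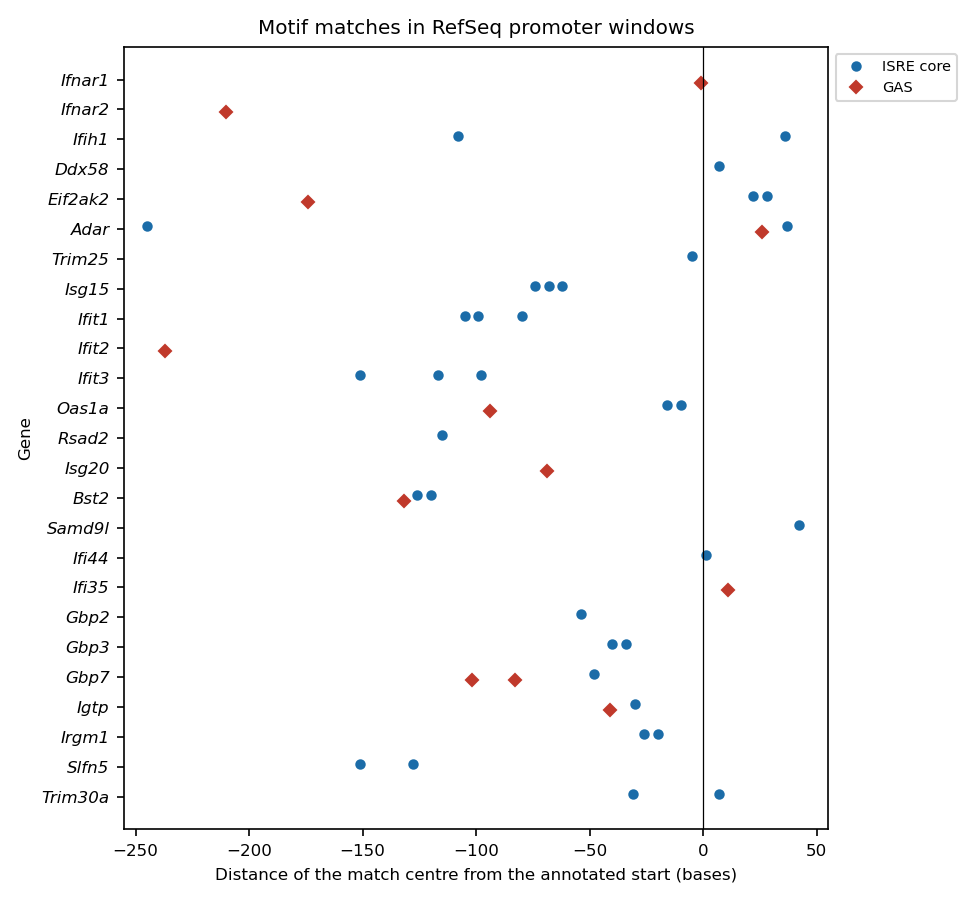
Matches to the ISRE core (blue circles) and GAS (red diamonds) in the RefSeq promoter windows of the genes that hold at least 1 match, by the distance of the match centre from the annotated start in bases. Most core matches lie in the 150 bases before the start or just after it, and Isg15, Ifit1 and Ifit3 hold 3 each.

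The libraries rest on 4.32 to 5.65 gigabases of aligned sequence, and 11947 to 12259 reference genes had at least 1 FPKM in a library (fragments per kilobase of transcript scaled to the depth of the library, a level per length). The sorted population was checked on fixed marker lists: 9 of 9 regulatory and CD4 T cell markers were present at 1 FPKM or more, summing to 2462 to 2814 FPKM in the vehicle libraries and 2922 to 3050 FPKM in the agonist libraries. Markers of other cells were low: 1 of 8 for B cells (summed 6.20 to 6.61 against 3.84 to 6.68 FPKM), 1 of 12 identifiers for myeloid cells (2.78 to 4.31 against 4.37 to 5.55 FPKM) and 0 of 7 for dendritic cells (0.120 to 0.609 against 0.151 to 0.986 FPKM). Of these, Csf3r, S100a8 and S100a9 (neutrophils and monocytes) and Siglech and Clec9a (dendritic cells) were listed at 0 in every library. Bst2 was also on the dendritic cell list but was left out of its count and sum, as 1 of the 39 genes. It was not low, with 38.6 to 44.6 against 27.8 to 38.8 FPKM. For the other lists 1 of 5 NK cell markers (1.58 to 3.35 against 1.89 to 5.32 FPKM), 1 of 2 CD8 T cell markers (3.89 to 5.43 against 4.53 to 6.40 FPKM) and 1 of 4 erythroid markers (1.56 to 5.82 against 0.637 to 2.66 FPKM) were present. The T cell and myeloid sums did not overlap between the groups, the myeloid sum being mostly Cd68 (2.26 to 4.08 against 3.64 to 5.28 FPKM). In the T cell list Tnfrsf18 (395 to 639 against 690 to 816 FPKM) and Ctla4 (206 to 277 against 314 to 414 FPKM) were higher with the agonist, Trac was lower (399 to 459 against 342 to 382 FPKM), and Foxp3 overlapped (109 to 153 against 124 to 154 FPKM). Their part in the differences below was not tested. In bulk RNA, fewer cells expressing a gene and less RNA per cell cannot be told apart.

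After 6 h of EP4 agonist, none of the interferon-stimulated genes passed the test between groups, and 26 of the 32 tested differed by less than 0.25 on the log2 scale. Changes this small were usual in these data: the median size of the log2 fold change was 0.123 over the 32 and 0.120 over all tested genes. Of the 39 genes, 32 could be tested, each with at least 1 FPKM in all 6 libraries. In limma's moderated test on log2(FPKM + 1), adjusted over the 12186 tested genes, 0 of the 32 passed the threshold of 0.05, where 0.394% of all tested genes did. At an unadjusted p under 0.05 there were 7 of 32, against 14.0% of tested genes: Ifnar1, Ifit2 and Parp14 on the higher side and Isg20, Bst2, Ifi35 and Slfn2 on the lower. Log2 fold changes ran from -0.34 to 0.39 with a median of 0.06, and the medians in the pairs numbered 1, 2 and 3 were 0.05, 0.08 and 0.09. It ranged from 0.0084 without vehicle replicate 2 to 0.1135 without vehicle replicate 1, was 0.0145 without agonist replicate 1 and 0.1007 without agonist replicate 2, and was 0.1021 with upper quartile scaling and 0.0976 with quantile normalization. The median over all tested genes was -0.03 and moved as well, to 0.0073 with upper quartile scaling and -0.0063 with quantile normalization. The fold change was above 0 for 21 of the 32 genes (65.6%) and for 42.8% of all tested genes.

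The libraries with the same replicate number varied together, so the test was also run with the number as a block, which compares agonist and vehicle within each numbered pair. With the block, 5 of the 32 passed, against 10.5% of all tested genes. Ifnar1 and Ifit2 rose (4.09% of tested genes rose), and Isg20, Ifi35 and Slfn2 fell (6.41% fell). With any 1 pair left out, 0 of the 32 passed, where 241, 0 and 1 of the 12186 tested genes did without pairs 1, 2 and 3. An unadjusted p under 0.05 was left in 11, 10 and 8 of the 32, against 28.4%, 21.0% and 19.9% of all tested genes. The 5 genes called with the block were among them each time, as were Bst2 and Parp14, which were not called. Each of these fits reuses the remaining pairs, so it is not a separate check of the calls. The split between rising and falling genes depended on scaling. With quantile normalization and the block, 4 rose (Ifnar1, Ifit2, Zbp1 and Parp14) and 1 fell (Isg20), where 4.26% of all tested genes rose and 3.92% fell. With upper quartile scaling and the block, 3 rose (Ifnar1, Ifit2 and Parp14) and 1 fell (Isg20), against 4.49% and 3.84%. With coverage and the block, 4 rose (Ifnar1, Ifit2, Isg15 and Parp14) and 4 fell (Isg20, Bst2, Ifi35 and Slfn2), against 6.69% and 10.1%. The balance over all tested genes thus moved with the scaling too.

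**Figure D2:**
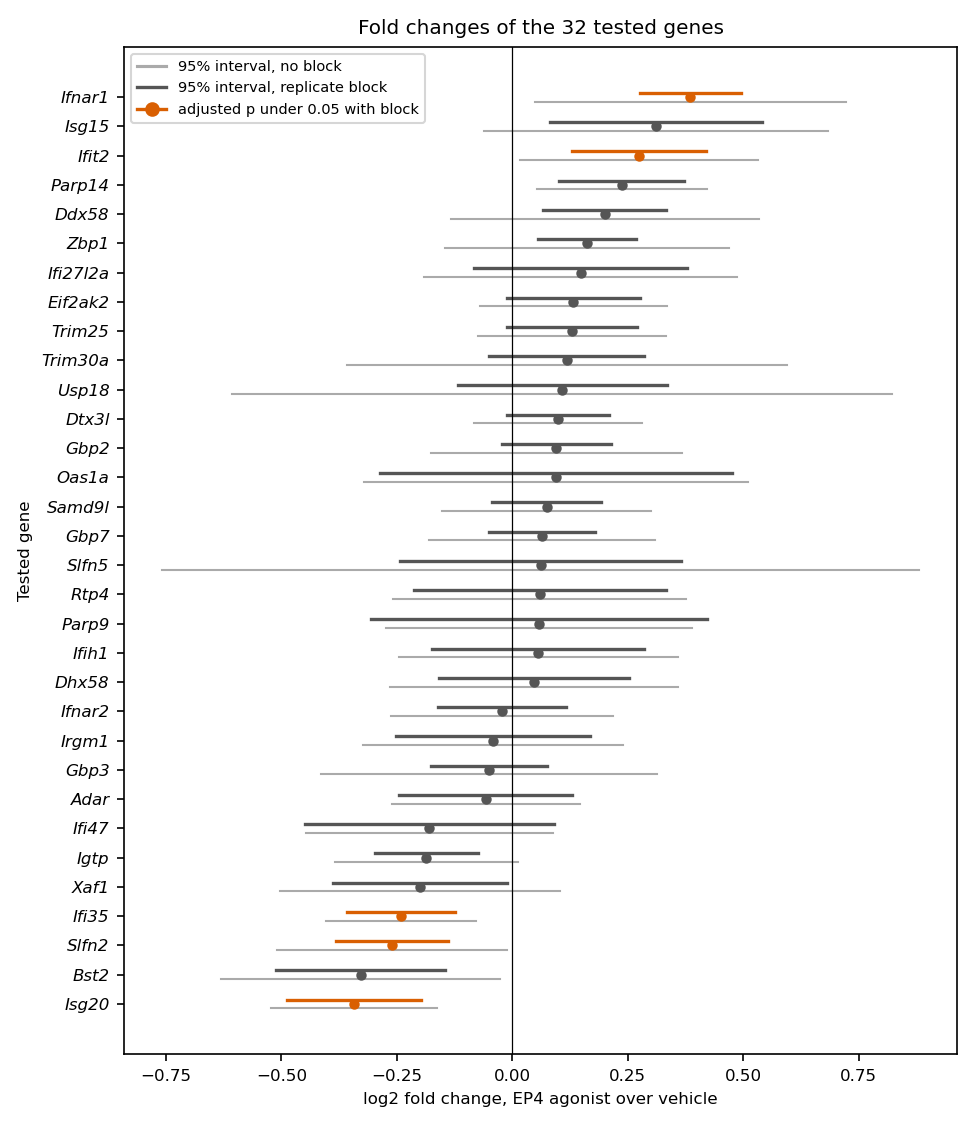
Log2 fold change of agonist over vehicle (x axis) for the 32 tested genes (y axis), with the 95% interval from limma without a block (thin grey) and with the replicate number as a block (thick). Orange marks the 5 genes with an adjusted p under 0.05 with the block, and Usp18 and Slfn5 show the widest intervals without it.

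Of the chains of the interferon receptor, Ifnar1 was higher with the agonist in each pair and Ifnar2 was level. Ifnar1 (ENSMUSG00000022967.12, chromosome 16, 91485238 to 91507441, plus strand, mm10), which encodes the chain that docks TYK2, had 38.4, 28.8 and 32.1 FPKM in vehicle replicates 1, 2 and 3 and 51.4, 38.1 and 41.3 FPKM in the agonist replicates. Agonist replicate 2 lay just under vehicle replicate 1, so the groups overlapped. The means were 33.1 ± 4.90 and 43.6 ± 6.94 FPKM (SD, n = 3 per group), giving a log2 fold change of 0.39 ± 0.14 (SE), at adjusted p = 0.306 in limma. With the block Ifnar1 rose (adjusted p = 0.0191), and its log2 differences in the 3 pairs were 0.41, 0.39 and 0.36.

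Ifnar2 (ENSMUSG00000022971.18, chromosome 16, 91372783 to 91405589, plus strand), which encodes the chain that binds interferon with high affinity and carries JAK1, had 24.3, 19.97 and 23.4 FPKM with vehicle and 24.4, 20.7 and 21.5 FPKM with the agonist. The groups covered nearly the same range. Its log2 fold change was -0.02, with a 95% interval from -0.26 to 0.22 (limma, adjusted p = 0.949), and its sign turned with quantile normalization, upper quartile scaling and coverage in place of FPKM. Ifnar2 overlaps the gene model Gm21970 on its own strand, and 7.89% of its 50-base stretches also occur in other transcripts, so part of its signal may belong elsewhere.

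The ratio of Ifnar1 to Ifnar2, taken within each library, was 1.58, 1.44 and 1.37 with vehicle and 2.11, 1.84 and 1.92 with the agonist. Every agonist library lay above every vehicle library. The means were 1.46 ± 0.107 and 1.96 ± 0.138, and a two-sided exact permutation test gave p = 0.1, which is the smallest value that 3 libraries against 3 can give. The uncertainty in the Ifnar2 signal given above carries over to this ratio.

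**Figure D3:**
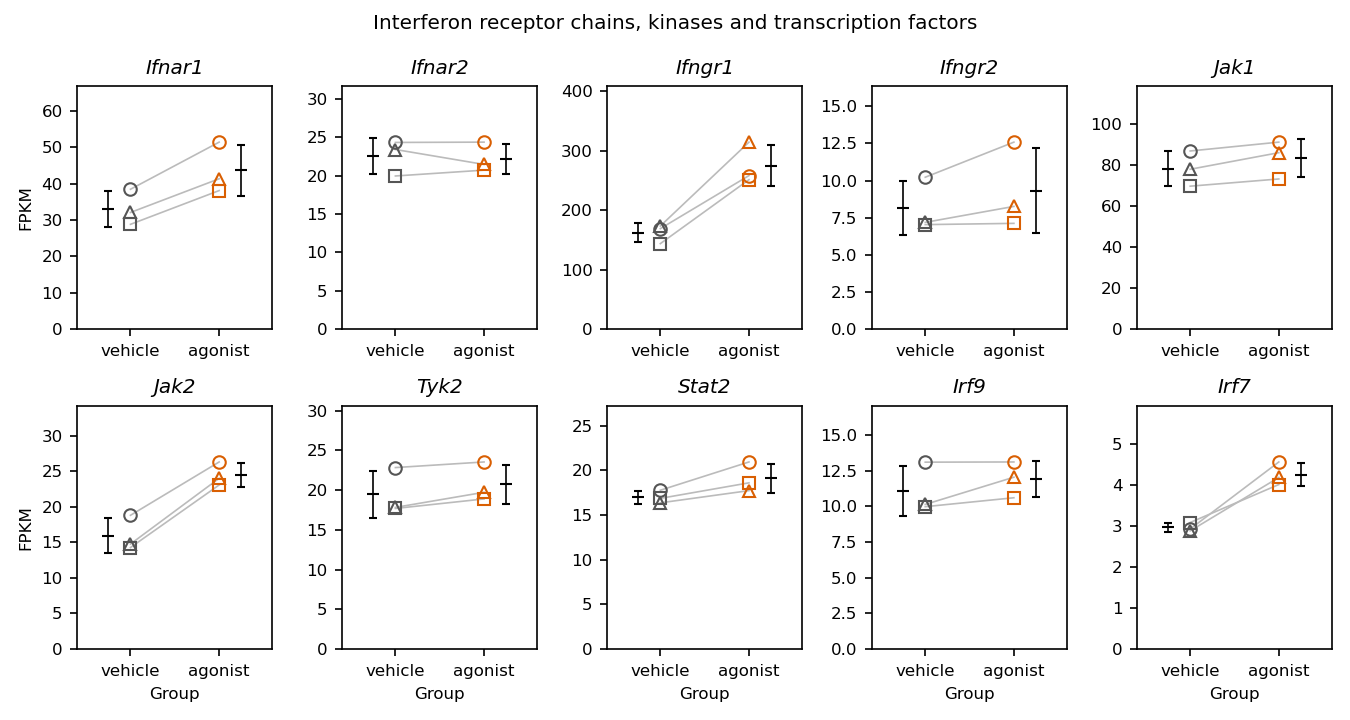
FPKM (y axes, each from 0) of interferon receptor chains, kinases and transcription factors with vehicle (grey) and agonist (orange), where circles, squares and triangles are replicates 1, 2 and 3, lines join the same number and bars show the mean and SD of 3 libraries. The agonist point is higher for all 3 numbers in each gene but Ifnar2, by the largest fold changes in Ifngr1 and Jak2, whereas Ifnar2 stays near 22 FPKM.

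Sensors of foreign nucleic acid were expressed at 2.08 FPKM (Ifih1) to 43.8 FPKM (Zbp1) on average, and none of the 7 passed with or without the block. Zbp1 (ENSMUSG00000027514.14, chromosome 2, 173206612 to 173218923, minus strand) encodes a sensor of Z-form nucleic acid that can start necroptosis. It had 47.7, 39.8 and 36.5 FPKM with vehicle and 53.2, 44.6 and 41.2 FPKM with the agonist. Each agonist library was above the vehicle library of its number by a similar step, while the groups overlapped. The log2 fold change was 0.16 ± 0.13 (SE), and limma gave adjusted p = 0.625, or 0.0731 when blocked. With the block and quantile normalization the adjusted p was 0.0466.

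Ddx58 (ENSMUSG00000040296.15, chromosome 4, 40203773 to 40239828, minus strand) encodes RIG-I, a sensor of viral RNA ends. It had 11.5, 8.63 and 10.2 FPKM with vehicle and 13.4, 9.74 and 12.3 FPKM with the agonist. Again the agonist library was higher in each pair and the groups overlapped, with a log2 fold change of 0.20 ± 0.14 (SE), and limma gave adjusted p = 0.574, or 0.0749 when blocked. Trim25, the ubiquitin ligase that activates RIG-I, had 12.7 ± 0.754 and 13.9 ± 1.01 FPKM. Eif2ak2, which encodes the RNA-activated kinase PKR, had 11.6 ± 0.809 and 12.9 ± 0.790 FPKM. Both were higher with the agonist in each pair, with adjusted p = 0.548 and 0.537 in limma. Dhx58, the regulator LGP2, had 4.98 ± 0.638 and 5.19 ± 0.788 FPKM. Ifih1, the long RNA sensor MDA5, had 2.01 ± 0.170 and 2.14 ± 0.365 FPKM. Adar, which edits adenosine in self RNA, had 29.7 ± 0.765 and 28.6 ± 2.78 FPKM and was the one of the 7 with a negative log2 fold change (-0.06, 95% interval -0.26 to 0.15).

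ISG15, a ubiquitin-like protein, and USP18, the protease that removes it and also restrains the type I interferon receptor, were both at low levels. Isg15 (ENSMUSG00000035692.6, chromosome 4, 156199424 to 156200818, minus strand), whose triple core match is shown above, had 2.79, 2.17 and 2.27 FPKM with vehicle and 4.21, 2.71 and 2.88 FPKM with the agonist. Agonist replicate 1 stood above the other 5 libraries, and agonist replicate 2 lay under vehicle replicate 1. Its log2 fold change was 0.31 ± 0.16 (SE), and limma gave adjusted p = 0.434, or 0.0932 when blocked. On coverage in place of FPKM, with the block, the adjusted p was 0.0332. Usp18 had 4.28, 2.03 and 1.73 FPKM with vehicle and 4.29, 2.56 and 1.904 FPKM with the agonist. Here the level went with the replicate number: both libraries numbered 1 were over 4 FPKM and the other 4 under 3 FPKM. The log2 fold change of 0.11 had a 95% interval from -0.61 to 0.82.

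Of the IFIT family, which binds viral RNA and blocks its translation, Ifit2 was the one at a testable level. Ifit2 (ENSMUSG00000045932.12, chromosome 19, 34550694 to 34576419, plus strand) had 7.29, 5.87 and 6.94 FPKM with vehicle and 8.72, 7.40 and 8.80 FPKM with the agonist. All agonist libraries lay above all vehicle libraries. The means were 6.70 ± 0.735 and 8.30 ± 0.787 FPKM, giving a log2 fold change of 0.27 ± 0.11 (SE), at adjusted p = 0.334 in limma. With the block Ifit2 rose (adjusted p = 0.0479). No ISRE core was found in its 2 promoter windows, and 1 of them holds a GAS match.

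Some classical antiviral genes were barely detected, and they are grouped here because they were too low to test. Mx1, Rsad2 (viperin), Ifi44, Oasl1, Oasl2, Ifit1 and Ifit3 reached 1 FPKM in 0 libraries, and their 7 values together summed to 1.35, 1.15 and 1.25 FPKM in the vehicle libraries and 2.03, 1.67 and 1.72 FPKM in the agonist libraries. The sums did not overlap between the groups, whereas each of the 7 genes overlapped on its own. Among single tested genes, 19.4% did not overlap. The means differed most in Ifit3 (0.425 with vehicle against 0.680 FPKM with the agonist), Oasl2 (0.127 against 0.287 FPKM) and Ifit1 (0.435 against 0.575 FPKM). Mx1 and Ifi44 had lower means with the agonist and the others higher ones. None of this was tested. Ifi44 was listed at 0 in 5 libraries and at 0.0102 FPKM in vehicle replicate 1. The nearest to the filter were Ifit3 with a mean of 0.552 FPKM and Ifit1 with 0.505 FPKM, and the lowest tested genes were Rtp4 with 1.42 FPKM and Ifih1 with 2.08 FPKM. Ifit3 had 0.479, 0.443 and 0.352 FPKM with vehicle and 0.680, 0.881 and 0.477 FPKM with the agonist. These values overlap narrowly, were not tested, and are uncertain because 51.2% of the 50-base stretches of Ifit3 also occur in its copy Ifit3b.

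Oas1a, an enzyme that makes oligoadenylates when it meets double-stranded RNA, was the one tested gene of the OAS family listed here. It had 2.31, 1.70 and 1.92 FPKM with vehicle and 2.54, 2.62 and 1.47 FPKM with the agonist, which included both the highest and the lowest of the 6 values. Its log2 fold change was 0.10 (95% interval -0.32 to 0.51), and 57.6% of its 50-base stretches also occur in Oas1g.

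**Figure D4:**
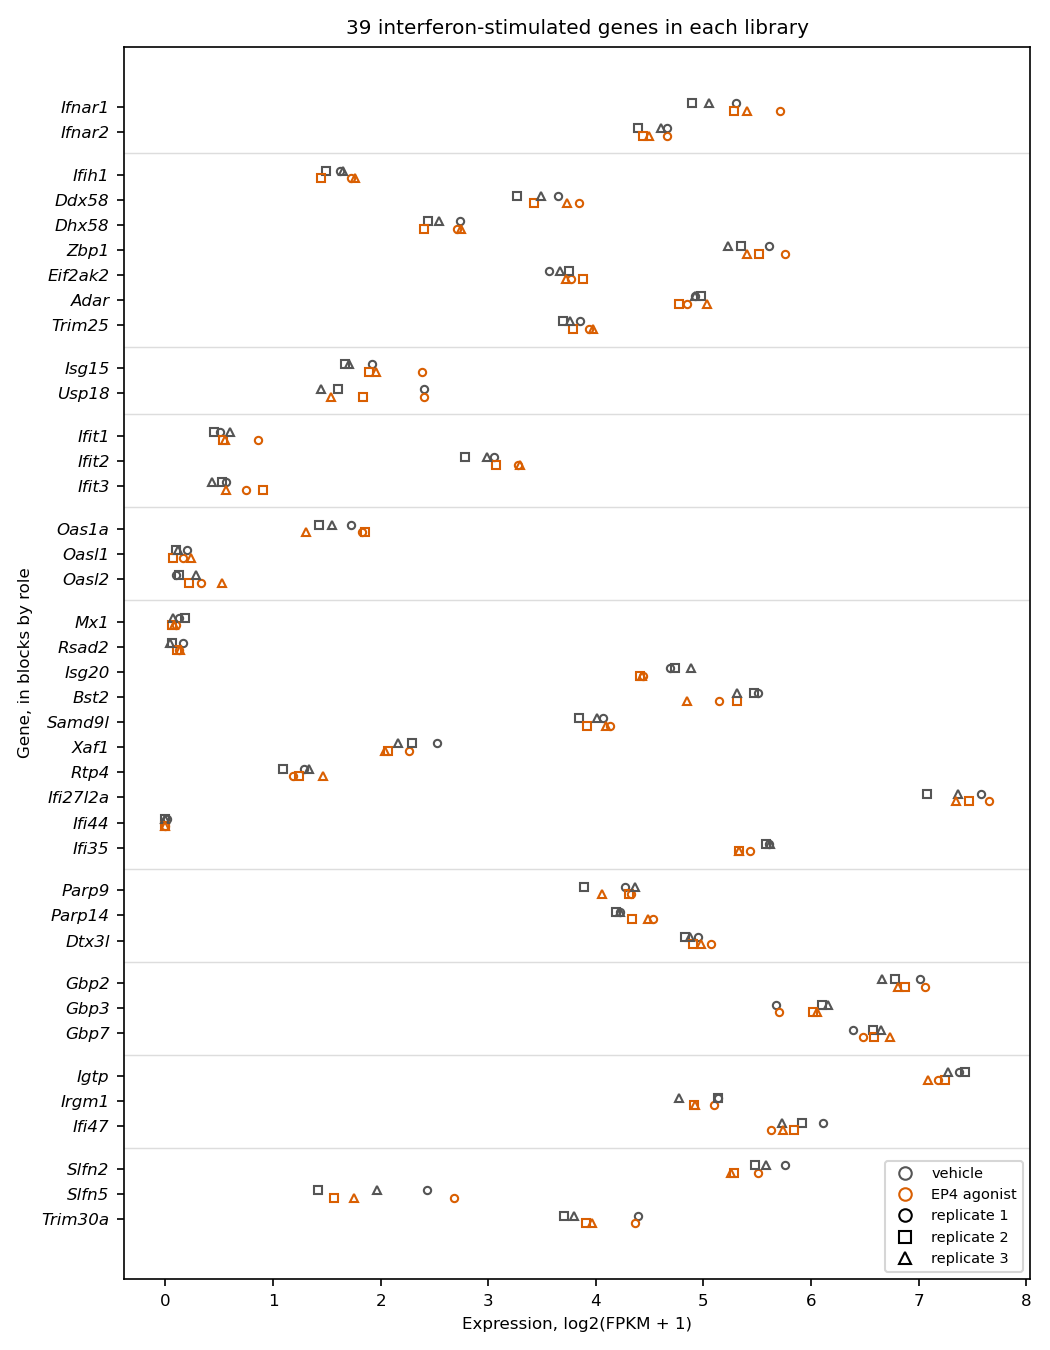
Expression as log2(FPKM + 1) (x axis) of the 39 genes (y axis, in blocks by role) in each library, with vehicle in grey, agonist in orange and a marker shape for each replicate number. Ifi27l2a, Igtp, Gbp2 and Gbp7 are the highest, and the 7 genes under 1 FPKM cluster at the left.

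The lower side was led by antiviral effectors other than the sensors. Isg20 (ENSMUSG00000039236.18, chromosome 7, 78913424 to 78920396, plus strand), an exonuclease that degrades RNA, had 24.8, 25.7 and 28.5 FPKM with vehicle and 20.7, 20.3 and 20.6 FPKM with the agonist. The groups did not overlap, and the agonist libraries were within 0.5 FPKM of each other. The means were 26.3 ± 1.905 and 20.5 ± 0.187 FPKM, giving a log2 fold change of -0.34 ± 0.08 (SE), at adjusted p = 0.143 in limma. With the block Isg20 fell (adjusted p = 0.0329).

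Ifi35 (ENSMUSG00000010358.13, chromosome 11, 101448407 to 101458698, plus strand), a leucine zipper protein induced by interferon, had 47.9, 47.0 and 48.1 FPKM with vehicle and 42.1, 39.1 and 39.3 FPKM with the agonist. The groups did not overlap. The log2 fold change was -0.24 ± 0.07 (SE), at adjusted p = 0.207 in limma. With the block Ifi35 fell (adjusted p = 0.0408), a call that ended with quantile normalization (0.0696) and upper quartile scaling (0.0618) in the same design.

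Bst2 (ENSMUSG00000046718.7, chromosome 8, 71534264 to 71537437, minus strand) encodes tetherin, which holds budding virus at the cell surface. It had 44.6, 43.4 and 38.6 FPKM with vehicle and 34.4, 38.8 and 27.8 FPKM with the agonist. Agonist replicate 2 lay just above vehicle replicate 3, so the groups overlapped, and agonist replicate 3 was the lowest. Its log2 fold change was -0.33 ± 0.13 (SE), and limma gave adjusted p = 0.327, or 0.0527 when blocked. On coverage with the block the adjusted p was 0.0153.

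Xaf1 (ENSMUSG00000040483.15, chromosome 11, 72301629 to 72313733, plus strand), a pro-apoptotic partner of XIAP, had 4.76, 3.88 and 3.48 FPKM with vehicle and 3.81, 3.20 and 3.11 FPKM with the agonist. Its groups overlapped, with a log2 fold change of -0.20 ± 0.13 (SE), and limma gave adjusted p = 0.534, or 0.151 when blocked. On coverage in place of FPKM the difference was -0.0042. Ifi27l2a, a small mitochondrial protein and the most abundant transcript of the 39 with a mean of 171 FPKM, had 190, 134 and 164 FPKM with vehicle and 200, 176 and 162 FPKM with the agonist. Its log2 differences in pairs 1, 2 and 3 were 0.07, 0.39 and -0.02, so the positive fold change of 0.15 came mostly from pair 2. Samd9l, an antiproliferative factor, had 14.7 ± 1.27 and 15.6 ± 1.27 FPKM, and Rtp4, a chaperone of receptors, 1.37 ± 0.210 and 1.47 ± 0.255 FPKM.

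PARP14 and the complex of PARP9 with the ubiquitin ligase DTX3L transfer ADP-ribose or ubiquitin in the interferon response. Parp14 (ENSMUSG00000034422.14, chromosome 16, 35832874 to 35871544, minus strand) had 17.7, 17.2 and 17.7 FPKM with vehicle and 22.1, 19.2 and 21.4 FPKM with the agonist. All agonist libraries were above all vehicle libraries, which lay within 1 FPKM of each other. The log2 fold change was 0.24 ± 0.08 (SE), and limma gave adjusted p = 0.266, or 0.0553 when blocked. With the block it passed under quantile normalization (0.0463), upper quartile scaling (0.0447) and coverage in place of FPKM (0.0359).

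Dtx3l had 28.5 ± 1.20 and 30.6 ± 1.91 FPKM and Parp9 17.2 ± 3.01 and 17.9 ± 1.91 FPKM. Dtx3l was higher with the agonist in each pair, whereas the log2 differences of Parp9 were 0.06, 0.42 and -0.30. The log2 fold change of Parp9 was 0.06 on FPKM and 0.20 on coverage (adjusted p = 0.0539 in limma with the block). The 2 genes overlap on opposite strands and Parp9 also overlaps the antisense model Gm15564, with a mean of 68.6 FPKM, so without the strand setting of the counting their reads may not have been told apart.

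The guanylate-binding proteins (GBPs), large GTPases that coat pathogen vacuoles, were among the most abundant of the genes and moved little. Gbp2 had 128, 109 and 100 FPKM with vehicle and 132, 117 and 111 FPKM with the agonist. Gbp7 had 92.2 ± 8.58 and 96.4 ± 8.69 FPKM, and Gbp3 62.7 ± 11.0 and 60.2 ± 7.83 FPKM. Their log2 fold changes were 0.10, 0.06 and -0.05 in that order, and that of Gbp3 turned positive with quantile normalization. Gbp7 overlaps the model Gm43802 on its strand, which is listed at a mean of 86.3 FPKM.

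The immunity-related GTPases (IRGs), which act with the GBPs on vacuoles, had negative log2 fold changes in all 3 genes, although that of Irgm1 turned positive with quantile normalization. Igtp (ENSMUSG00000078853.8, chromosome 11, 58199556 to 58207591, plus strand), which encodes IRGM3, had 165, 171 and 153 FPKM with vehicle and 144, 150 and 135 FPKM with the agonist. The groups did not overlap, and the 3 pairs differed by -0.19, -0.19 and -0.18 on the log2 scale. Its log2 fold change was -0.19 ± 0.08 (SE), and limma gave adjusted p = 0.386, or 0.0614 when blocked. Igtp overlaps Irgm2 on its strand and shares 11.8% of its 50-base stretches with it. Irgm1, a regulator of the other IRGs, had 31.6 ± 4.59 and 30.5 ± 2.30 FPKM, and Ifi47 had 59.8 ± 7.97 and 52.5 ± 3.95 FPKM. The log2 differences of Ifi47 in the 3 pairs were -0.48, -0.07 and 0.01, so its negative fold change came mostly from pair 1.

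Slfn2 (ENSMUSG00000072620.3, chromosome 11, 83065112 to 83070678, plus strand), needed for T cell quiescence, had 53.3, 43.6 and 47.0 FPKM with vehicle and 44.4, 37.8 and 37.3 FPKM with the agonist. Agonist replicate 1 lay above vehicle replicate 2, so the groups overlapped, and the agonist library was the lower one in each pair. The log2 fold change was -0.26 ± 0.11 (SE), at adjusted p = 0.342 in limma. With the block Slfn2 fell (adjusted p = 0.0379), a call that ended with quantile normalization (0.0622) and upper quartile scaling (0.0580) in the same design.

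Slfn5, a nuclear Schlafen protein, had 4.40, 1.68 and 2.92 FPKM with vehicle and 5.43, 1.97 and 2.37 FPKM with the agonist. Trim30a, a TRIM family ubiquitin ligase, had 19.97, 12.04 and 12.9 FPKM with vehicle and 19.6, 14.0 and 14.7 FPKM with the agonist. In both genes the libraries numbered 1 were the highest of their group, and the groups overlapped.

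In most of the 32 tested genes the libraries differed between replicate numbers by more than the fold change. The spread between the numbers (the highest minus the lowest mean of a numbered pair, in log2) was larger than the fold change for 24 of 32 genes, against 73.6% of all tested genes, a share close to the 75% of these 32. Spreads were largest for Slfn5 (1.06), Usp18 (0.91) and Trim30a (0.57). Replicate 1 was the highest library in both groups for 16 of 32 genes, against 28.4% of all tested genes. Replicate 2 was the highest in both groups for Eif2ak2 and Igtp (15.2% of all tested genes), and replicate 3 for Ifih1, Rtp4, Gbp3 and Gbp7 (14.5%).

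Within the pairs, 13 of 32 genes were higher with the agonist in all 3, against 20.7% of all tested genes. They were Ifnar1, Ddx58, Zbp1, Eif2ak2, Trim25, Isg15, Usp18, Ifit2, Samd9l, Parp14, Dtx3l, Gbp2 and Gbp7. In 6 genes, against 31.6% of all tested genes, the agonist library was lower in all 3 pairs: Isg20, Bst2, Xaf1, Ifi35, Igtp and Slfn2. The groups did not overlap at all in 2 genes on the higher side (Ifit2 and Parp14, 7.27% of all tested genes) and in 3 on the lower side (Isg20, Ifi35 and Igtp, 12.1%). These counts have no test of their own.

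**Figure D5:**
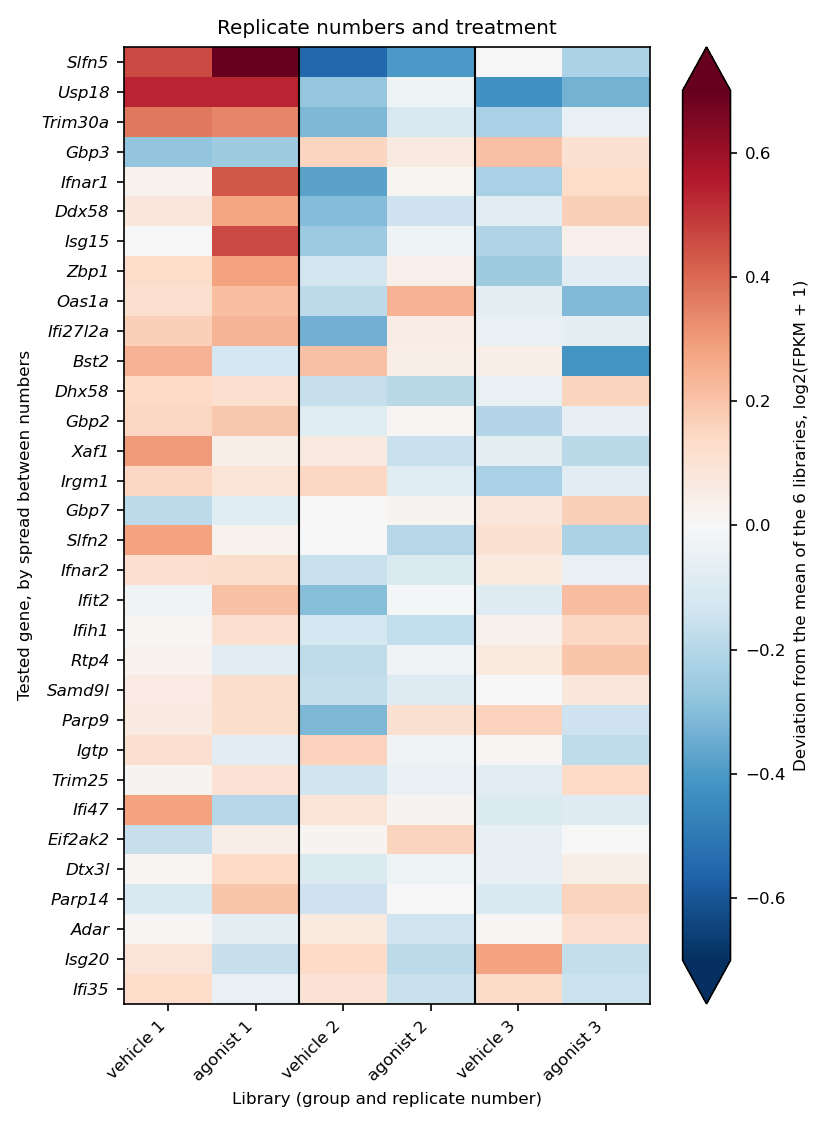
Deviation of each library (x axis, ordered by replicate number) from the mean of the 6 libraries on log2(FPKM + 1) for the 32 tested genes (y axis, ordered by the spread between numbers). Red is higher and blue lower, and the top rows, Slfn5, Usp18 and Trim30a, are red in both libraries numbered 1.

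The tested genes with and without an ISRE core in the promoter table can be set side by side as a description. The 16 with the core had 11 positive and 5 negative log2 fold changes with a median of 0.07, from -0.33 (Bst2) to 0.31 (Isg15). The 9 without it had 3 positive and 6 negative values with a median of -0.18, from -0.34 (Isg20) to 0.39 (Ifnar1). Genes with the core thus had fold changes of both signs, as do Isg15 and Bst2, whose stretches are shown above, while the highest and the lowest of all were genes without it.

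The remainder of the interferon system was read from a list of 119 further genes of ligands, receptors, signalling, feedback and targets, of which 102 were tested. Without the block 0 passed and 15 (14.7%) had an unadjusted p under 0.05, against 14.0% of all tested genes. When blocked, limma called 11 (10.8% of the list, against 10.5% of all tested genes): 5 were higher and 6 lower. The split was 5 and 3 with quantile normalization and the block, and 7 and 3 with upper quartile scaling and the block. With coverage and the block it was 10 higher and 12 lower. Over all tested genes the higher side was also the larger with quantile normalization and upper quartile scaling, and the smaller with coverage, as given above. Blocked calls numbered 5 without pair 1 and 0 without pair 2 or pair 3, where 241, 0 and 1 of all tested genes passed without pairs 1, 2 and 3. In these fits 36, 25 and 26 of the list (35.3%, 24.5% and 25.5%) had an unadjusted p under 0.05. The shares of all tested genes were 28.4%, 21.0% and 19.9%. The median log2 fold change of the list was -0.02. Among the ligands, Ifnb1, Ifna1 and Ifna4 were listed at 0 in every library. Ifng, the gene of interferon gamma, had 0.223, 0.863 and 0.428 FPKM with vehicle and 0.605, 1.75 and 0.830 FPKM with the agonist, too low for the test.

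A receptor chain and a kinase of the interferon gamma pathway, Ifngr1 and Jak2, had the highest fold changes of that list. Ifngr1, the ligand-binding chain of the interferon gamma receptor, had 169, 144 and 173 FPKM with vehicle and 258, 251 and 314 FPKM with the agonist. The groups stood well apart, with means of 162 ± 15.98 and 275 ± 34.6 FPKM, giving a log2 fold change of 0.75 ± 0.12 (SE), at adjusted p = 0.0642 in limma. Ifngr1 rose with the block (adjusted p = 0.0166), and without it when upper quartile scaling was used (0.0489). Its partner Ifngr2 had 8.15 ± 1.80 and 9.32 ± 2.88 FPKM (adjusted p = 0.796). The ratio of Ifngr1 to Ifngr2 was 20.4 ± 3.80 with vehicle and 31.3 ± 9.43 with the agonist. Its groups overlapped (two-sided exact permutation test, p = 0.2). Jak2, the kinase bound to IFNGR2, rose with the block from 15.9 ± 2.48 to 24.4 ± 1.66 FPKM (adjusted p = 0.109 without it and 0.0174 with it).

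The kinase genes Jak1 and Tyk2 and the ISRE-binding factors Stat2 and Irf9 did not pass, with or without the block. Jak1 had 78.1 ± 8.57 and 83.4 ± 9.23 FPKM, Tyk2 19.4 ± 2.93 and 20.7 ± 2.48 FPKM, and Irf9 11.1 ± 1.76 and 11.9 ± 1.26 FPKM. Stat2 had 17.0 ± 0.716 and 19.1 ± 1.66 FPKM. Irf7, which amplifies type I interferon production, rose with the block from 2.96 ± 0.107 to 4.25 ± 0.281 FPKM (limma, adjusted p = 0.158 without it and 0.0441 with it).

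A further 7 genes of the list called with the block were effectors and regulators, and 0 of them passed without it. Cd274, which encodes PD-L1, rose from 6.79 ± 1.47 to 9.61 ± 1.70 FPKM (adjusted p with the block 0.0253). Ifi30, a thiol reductase of antigen processing, fell from 61.8 ± 5.10 to 41.3 ± 5.07 FPKM (0.0166), and Ptpn6, the phosphatase SHP-1, from 78.2 ± 7.57 to 57.0 ± 0.554 FPKM (0.0266). Oas3 fell from 4.69 ± 0.135 to 3.35 ± 0.0710 FPKM (0.0352). Ly6e, a surface protein and the most abundant of these, fell from 465 ± 45.4 to 370 ± 12.5 FPKM (0.0418). Gbp4 fell from 30.5 ± 5.06 to 25.6 ± 3.98 FPKM (0.0360), and Ifi203, of the DNA-binding HIN-200 family, from 33.4 ± 8.35 to 25.6 ± 4.32 FPKM (0.0393). In the same design these calls ended for Ly6e with quantile normalization (0.0735) and upper quartile scaling (0.0607), for Gbp4 with both (0.0606 and 0.0549) and with coverage (0.0680), and for Ifi203 with both (0.0512 and 0.0536). The groups did not overlap for Cd274, Ifi30, Ptpn6, Oas3 and Ly6e, and overlapped for Gbp4 and Ifi203. Over the whole list they did not overlap in 21 of the 102 tested genes (20.6%), against 19.4% of all tested genes.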

How the data were processed

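RNA was sequenced from 3 vehicle and 3 agonist libraries, grouped and numbered by their titles. The kit was stranded and selects poly(A) RNA, per the labels' protocols. Trim Galore, HISAT2 and mm10 are named in the submitters' processing notes. For the abundance program, annotation and strand setting, nothing is given in the sources used here. The deposited tables give FPKM and coverage (a signal) per gene, per the file headers, and both were used as the authors made them. The deposited TPM column sums to 1901346 to 1930242 and was not used. Identifiers that occurred more than once (22 to 24 per library) were summed. Fragment counts could not be recovered, so intervals for counting error are not given. The modal ratio of coverage to FPKM in a library gave its aligned gigabases.

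The scale was log2(FPKM + 1), and the 12186 reference genes with at least 1 FPKM in 3 or more libraries were tested. On this scale the changes of low genes are understated. The test was limma 3.58.1 (intensity trend and robust variances, statmod 1.5.0, R 4.3.3) with Benjamini-Hochberg adjustment over all tested genes, a threshold of 0.05 and no block as the main design, tested on simulated data. "Rose" and "fell" refer to this threshold. The members, role groups, pathway list, motifs and rules were chosen with earlier results of these data known. Full values are given for genes that passed with or without the block, the 6 highest and 6 lowest fold changes and both receptor chains, and from the pathway list for at most 12 genes that passed plus Jak1, Tyk2, Stat2, Irf9 and Irf7; some genes that the rule takes are not reported here. Whether the shared replicate numbers pair the libraries was checked: deviations from the group means correlated at 0.512, 0.404 and 0.321 for the same number and from -0.353 to 0.00197 for different numbers. All 3 were over the limit of 0.1, so blocked values stand beside the calls they change. Only these correlations support the pairing, and a block chosen this way favours smaller p-values. A total of 22 alternatives were run. Promoters came from RefSeq (GRCm38.p6), and stretches of 50 bases shared between genes from GENCODE M21 transcripts (39 of 39 identifiers matched). Python 3.11.15 with pandas 2.3.3, numpy 2.4.6 and matplotlib 3.10.9 handled tables and plots.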

Additional observations from a re-analysis of the deposited data

How the results depend on the processing

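There are 3 libraries a group, and the files give no fragment counts. Without the block 0 of the 32 genes passed under any alternative. With the block 5 passed, 5 with quantile normalization, 4 with upper quartile scaling and 8 with coverage; the last 2 combinations were chosen after seeing the data. Of the 5 called with the block, 3 were also called with quantile normalization, 3 with upper quartile scaling and 5 with coverage. The cause of these differences was not tested.

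Over all tested genes the 48 calls became 87 with coverage, 2 without a filter and 75 with upper quartile scaling. With the block they were 1279, then 997 with quantile normalization, 1015 with upper quartile scaling and 2042 with coverage, and 241, 0 (2557 at an unadjusted p under 0.05) and 1 without pairs 1, 2 and 3. Leaving out 1 library gave 0 to 133 (133 without vehicle replicate 1, 4 and 5 without agonist replicates 1 and 3, and 0 for each other library, with unadjusted p under 0.05 in 1033 genes without vehicle 2, 1115 without vehicle 3 and 1606 without agonist 2). In the pathway list of 102 tested genes, 11 passed with the block, 8 with quantile normalization and the block, 10 with upper quartile scaling and the block, 22 with coverage and the block, 5 with the block without pair 1, 1 with upper quartile scaling alone and 0 to 2 without 1 library.

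The median log2 fold change of the 32 genes, 0.06, was 0.0838 when FPKM was rescaled to a common total, 0.0922 with coverage, 0.0976 with quantile normalization and 0.1021 with upper quartile scaling, with or without the block, and 0.0084 (without vehicle replicate 2) to 0.1135 (without vehicle replicate 1) when 1 library was left out. Over all tested genes the median was -0.0207 when rescaled, -0.0271 with coverage, -0.0063 with quantile normalization and 0.0073 with upper quartile scaling. It was -0.041 without vehicle replicate 2 and -0.0163 without vehicle replicate 1. For the 46 single genes reported, 41 of 1003 alternative values changed sign, all in 14 genes with log2 fold changes of at most 0.12 in size. Ifnar2 was at 0.0175 with coverage, 0.0204 with quantile normalization, 0.0181 with upper quartile scaling and 0.0269 with the block without pair 3. With quantile normalization Gbp3 was at 0.0082 and Irgm1 at 0.0098. With the block, without pair 1 Slfn5 was at -0.0349, without pair 3 Dhx58 at -0.0314, and without pair 2 Adar at 0.0196, Irgm1 at 0.0517, Oas1a at -0.0705 and Parp9 at -0.1227. With 1 library left out the ranges were -0.1303 to 0.4011 for Usp18, -0.2805 to 0.307 for Slfn5, -0.0238 to 0.3315 for Trim30a, -0.203 to 0.0596 for Gbp3, -0.0098 to 0.1249 for Gbp7, -0.1644 to 0.0199 for Irgm1, -0.0833 to 0.1526 for Parp9, -0.0021 to 0.2732 for Oas1a, -0.0021 to 0.156 for Ifih1, -0.021 to 0.1569 for Dhx58, -0.0234 to 0.1147 for Rtp4, -0.1041 to 0.0324 for Ifnar2 and -0.0009 to 0.2054 for Tyk2.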
